A study of Mus musculus with 6 samples.

Results

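The 6 genes of the platelet-derived growth factor (PDGF) system were described in single cells of the aged mouse lung: the 4 ligand genes Pdgfa, Pdgfb, Pdgfc and Pdgfd and the 2 receptor genes Pdgfra and Pdgfrb. They were found by symbol among the 31054 features of the deposited count matrices, and each symbol matched 1 feature. The data are 6 droplet libraries, each from the lung of 1 male C57BL/6 mouse of 21 months. The genotype was p16-CreERT2/R26-LSL-DTR, written p16-DTR here, in 3 mice and p16-CreERT2 alone in 3 control mice. CreERT2 is a recombinase that acts only in the presence of tamoxifen and is driven here by p16, the senescence-associated product of Cdkn2a. The R26-LSL-DTR allele gives the diphtheria toxin receptor to cells in which that recombinase was active, so the toxin can kill them. All 6 mice received tamoxifen on 5 days and, 2 weeks later, diphtheria toxin on 5 days, and the lungs were taken after 2 weeks of recovery. The controls therefore carried the recombinase and received both agents, and they lacked the toxin receptor allele. Lungs were digested with Liberase, and 20000 CD45-negative and 9000 CD45-positive cells of each lung were mixed for 1 library (10x GEM-X 3′ v4). The question asked of these genes is where each is expressed and whether its level differs between mice in which p16-high cells were targeted and controls.

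PDGFs are dimeric growth factors, and their receptors are tyrosine kinases on the cell surface that pair and phosphorylate each other when a ligand binds. PDGF-A and PDGF-C act mainly through PDGFRα, the product of Pdgfra, and PDGF-B and PDGF-D act mainly through PDGFRβ, the product of Pdgfrb. PDGF-C and PDGF-D are secreted in a latent form and are activated by proteases, PDGF-C by tissue plasminogen activator and PDGF-D by urokinase. In the lung, PDGF-A from epithelium is known for directing PDGFRα-bearing fibroblasts during alveolar development, and PDGF-B from endothelium is known for recruiting PDGFRβ-bearing pericytes to capillaries.

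On GRCm38 the genes lie at chr5:138976014-138997370 (Pdgfa, ENSMUSG00000025856, minus strand), chr15:79995874-80014977 (Pdgfb, ENSMUSG00000000489, minus strand) and chr3:81036416-81214040 (Pdgfc, ENSMUSG00000028019, plus strand). Pdgfd (ENSMUSG00000032006) lies at chr9:6168584-6378850 and Pdgfra (ENSMUSG00000029231) at chr5:75152292-75198215, both on the plus strand. Pdgfrb has the identifier ENSMUSG00000024620, and its position is not given here. These spans run over exons, introns and untranslated regions of each gene. On the opposite strand, Pdgfa overlaps 6330403L08Rik, Pdgfb overlaps Gm41361, Pdgfc overlaps Gm16000, Pdgfd overlaps Ddi1, and Pdgfra overlaps Gm42802 and Gm42803. Whether counting used the strand is not given in the sources used here, so reads of such partners cannot be told apart from those of the gene with certainty.

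RefSeq start site windows (GRCm38.p6, 250 bases before to 50 bases after the start) were at hand for 4 of the 6 genes. The 250 bases before the start are shown for Pdgfd, the ligand with the most lower values in the group comparison, and for Pdgfra, which marks the fibroblasts. The Pdgfd stretch is chr9:6168236-6168485 and the Pdgfra stretch is chr5:75152001-75152250, both on the plus strand and written 5′ to 3′, with any TATAAA match in capitals.
Pdgfd: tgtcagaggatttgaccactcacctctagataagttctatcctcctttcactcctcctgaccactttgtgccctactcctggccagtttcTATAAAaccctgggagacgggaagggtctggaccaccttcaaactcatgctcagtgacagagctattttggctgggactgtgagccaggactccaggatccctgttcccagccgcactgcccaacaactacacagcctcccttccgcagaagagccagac
Pdgfra: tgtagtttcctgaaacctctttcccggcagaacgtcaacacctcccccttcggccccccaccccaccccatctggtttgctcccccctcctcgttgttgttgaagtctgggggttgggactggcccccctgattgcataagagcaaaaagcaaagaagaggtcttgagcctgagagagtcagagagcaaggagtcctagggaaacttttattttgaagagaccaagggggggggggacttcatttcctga
The windows were searched on both strands for the TATA box letters TATAAA, for the GC box letters GGGCGG and for CCAAT. Among the windows of Pdgfa, Pdgfc, Pdgfd and Pdgfra, only that of Pdgfd held TATAAA, 160 bases before the start site, against 13.6% of all 32851 windows. The Pdgfa windows, from separate start sites, held GGGCGG, which 35.7% of all windows hold, and had a GC content of 67.0% and 73.3%. The GC content was 56.7% for Pdgfd, 55.0% for Pdgfc and 51.0% for Pdgfra, against a median of 52.7% over all windows. A match is a run of letters and not a measured binding site.

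The libraries held 13482 to 17332 cell barcodes and 254200305 to 344421685 unique molecular identifiers (UMIs, one per captured RNA molecule), with a median of 16587.5 to 18149 UMIs per barcode, and 2 libraries shared at most 90 barcodes. After filtering, 85582 cells remained, of which 76595 were put by marker genes into 29 classes and 8987 (10.5%) into none. Names of classes stand for cells resembling the named type. The AT1 class, flat alveolar type 1 epithelium, was shallow, with 611 cells and a median of 1804 UMIs, 10.5% of the library median. Of its 10 leading genes, 4 were markers by which its cells had been chosen, so they are no independent check of its name. Cdkn2a, the check of the labels, stood at 6.74, 8.53 and 7.17 UMIs per 1000000 UMIs (CPM) in the p16-DTR-labelled libraries and at 1.16, 2.60 and 2.81 in the controls, 3.42-fold higher as a ratio of means. This goes against the label, under which p16-high cells were to be removed, so every group difference below is one between libraries with these labels. The reads cover Cdkn2a as a whole gene, which encodes both p16 and Arf.

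Levels below, in CPM, are UMIs of a gene per 1000000 UMIs of a class in a library. They are compared between classes for 1 gene and not between genes, since gene lengths and capture differ. Means are over all 6 libraries with the SD (n = 6), for the 24 classes with at least 20 cells in every library, and classes whose ranges over the 6 libraries overlap are said not to be separated.

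Pdgfa, a ligand of PDGFRα, was highest in alveolar type 1 epithelium and in pericytes, the contractile cells that wrap capillaries. In the AT1 class it stood at 571, 774 and 513 CPM in the p16-DTR-labelled libraries and at 824, 809 and 757 in the controls, a mean of 708 ± 132. Pericytes followed with 556, 628 and 488 in the p16-DTR-labelled libraries and 579, 503 and 494 in the controls, a mean of 541 ± 56.1. The ranges of these 2 classes overlapped, so their order is not separated. Ciliated epithelium, which moves mucus along the airways, stood lower at 207 ± 5.38, with a range of only 199 to 215, and below every pericyte value. Smooth muscle at 149 ± 17.5 and mesothelium, the outer lining of the lung, at 75.3 ± 11.2 came next, each below the previous class in all 6 libraries. The mesothelium was not separated from lymphatic endothelium at 67.0 ± 14.3, and alveolar type 2 (AT2) epithelium, which makes surfactant, stood at 46.2 ± 4.17. Arterial endothelium at 40.8 ± 16, peribronchial fibroblasts at 31.7 ± 7.28 and interstitial macrophages at 30.9 ± 9.83 completed the order down to 30 CPM. When only AT1 cells with at least 5000 UMIs were used, 20 to 53 cells per library, Pdgfa stood at 704 ± 136 there.

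Pdgfb, the ligand that recruits pericytes, was a gene of capillary endothelium. The aerocytes, large capillary endothelial cells of the gas exchange surface, held 341, 373 and 341 CPM in the p16-DTR-labelled libraries and 344, 336 and 356 in the controls, a mean of 349 ± 13.7. General capillary (gCap) endothelium held 202, 235 and 280.3 against 226, 226 and 177, a mean of 224 ± 34.6. Every aerocyte value exceeded every gCap value. The AT1 class followed with 162 ± 31.3, which was not separated from gCap, and stood at 168 ± 32.2 in its cells with at least 5000 UMIs. Arterial endothelium stood at 92.4 ± 35.3 and venous endothelium at 67.1 ± 27.7. Leukocytes also held Pdgfb, led by interstitial macrophages at 88.6 ± 15.9 and NK cells at 47.5 ± 7.20, with cDC1 and cDC2 dendritic cells at 30.4 ± 6.87 and 26.7 ± 8.18 and nonclassical monocytes at 22.5 ± 8.26.

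Pdgfc, a latent ligand of PDGFRα, was sparse. Peribronchial fibroblasts, which lie along the airways, held 89.8, 84.9 and 111 CPM in the p16-DTR-labelled libraries and 172, 131 and 131 in the controls, a mean of 119.9 ± 32.1. Their lowest value exceeded the highest of the other 23 classes with a level. Interstitial macrophages were next among these at 44.0 ± 16.6, with a range of 21.7 to 62.6. Alveolar macrophages, the resident phagocytes of the airspace, are not among the 24 classes, since the gate found only 15 to 35 of them per library. Taken by cluster, with 21 to 53 cells per library, they held 65.6 ± 27.6 CPM of Pdgfc, with a range of 40.2 to 113.99. That range overlapped the interstitial macrophages taken the same way, at 22.1 to 56.5, and reached past the lowest peribronchial value, 90.4. Mesothelium stood at 14.2 ± 6.03, adventitial fibroblasts, which surround larger vessels and airways, at 8.83 ± 2.54 and smooth muscle at 6.61 ± 4.28, and all other classes had a mean of at most 2.45.

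Pdgfd, a latent ligand of PDGFRβ, was spread over vessels and the cells around them. Aerocytes held 734, 586 and 616 CPM in the p16-DTR-labelled libraries and 755, 742 and 769 in the controls, a mean of 700.2 ± 78.5. Every aerocyte value exceeded those of the other classes except arterial endothelium, which reached 656 in 1 library. Below them, gCap endothelium at 489.6 ± 49.7, arterial endothelium at 476 ± 103, mesothelium at 379.7 ± 41.0 and smooth muscle at 371 ± 68.0 had ranges that overlapped from each to the next. Venous endothelium at 235 ± 57.0, adventitial fibroblasts at 234 ± 40.9 and lymphatic endothelium at 225 ± 37.6 followed, not separated from each other or from smooth muscle. Peribronchial fibroblasts at 60.1 ± 22.4 and alveolar fibroblasts, the fibroblasts of the alveolar wall, at 37.6 ± 8.10 were lower than all of these.

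Both receptors were highest in mesenchymal classes, and in different ones. Pdgfra stood at 1529, 1480.0 and 1537 CPM in alveolar fibroblasts of the p16-DTR-labelled libraries and at 1364, 1451 and 1341 in those of the controls, a mean of 1450.2 ± 82.3. Adventitial fibroblasts held 519 ± 25.9, with a range of 472 to 543, below every alveolar fibroblast value. Smooth muscle had a mean of 28.4 ± 51.1 that rested on replicate 3 of the p16-DTR-labelled libraries, with 132 from 30 cells, while the other 5 libraries stood at 3.72 to 13.6. Peribronchial fibroblasts at 23.8 ± 5.45 and mesothelium at 18.1 ± 15.8 followed, and every other class had a mean of at most 9.80.

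Pdgfrb stood at 1326, 1259 and 1275 CPM in pericytes of the p16-DTR-labelled libraries and at 1308, 1413 and 1289.7 in those of the controls, a mean of 1312 ± 55.1. Smooth muscle held 213 ± 33.0, adventitial fibroblasts 97.8 ± 7.35, peribronchial fibroblasts 60.4 ± 5.91 and alveolar fibroblasts 26.8 ± 3.65. Each of these 5 classes lay above the next in all 6 libraries. Arterial endothelium had 5.84 ± 2.99, and no further class had a mean above 3.91.

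**Figure D1:**
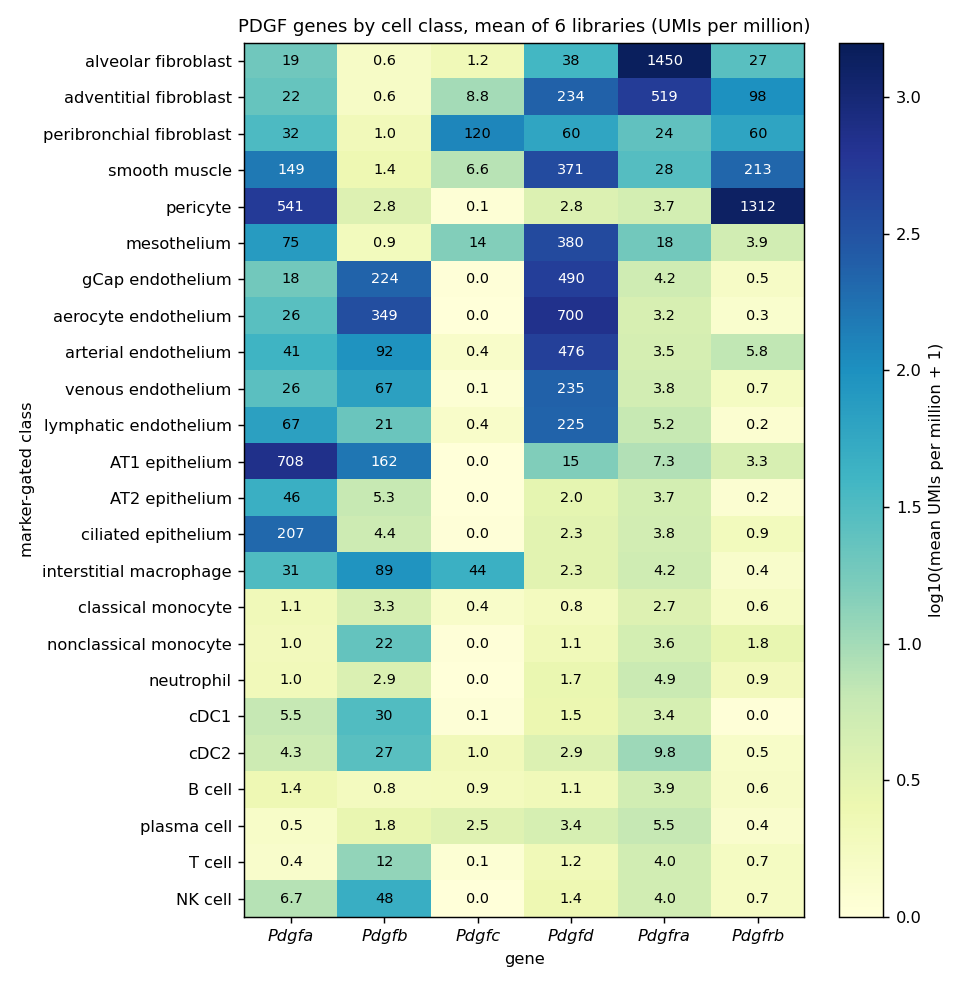
Mean level of each PDGF gene (columns) in each marker-gated class (rows) over 6 libraries, with colour on a log10 scale of CPM + 1. Pdgfra is brightest in alveolar fibroblasts (1450.2), Pdgfrb in pericytes (1312), Pdgfb and Pdgfd in aerocytes (349 and 700.2), Pdgfa in AT1 epithelium (708) and Pdgfc in peribronchial fibroblasts (119.9).

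Whether single cells held both receptors was counted after each cell had been thinned to 5000 UMIs, with shallower cells left out. Among mesenchymal classes, that left out 884 and 1073 alveolar fibroblasts, 46 and 62 adventitial fibroblasts, 31 and 32 peribronchial fibroblasts, 37 and 76 pericytes and 17 and 16 smooth muscle cells from the p16-DTR-labelled libraries and the controls. In alveolar fibroblasts, 98.3 ± 0.289% of thinned cells had a Pdgfra UMI, against 2.20 ± 0.514% of neutrophils and 1.95 ± 1.06% of B cells, classes taken to lack the receptor (median depths 22545, 9550 and 13141.5 UMIs). In pericytes, 99.1 ± 0.792% had a Pdgfrb UMI, against 0.262% of neutrophils and 0.122% of B cells. Unthinned and with shallow cells included, the shares were 94.8% of alveolar fibroblasts, 5.43% of neutrophils and 5.51% of B cells for Pdgfra, and 93.2% of pericytes for Pdgfrb. Pdgfra alone was found in 86.9 ± 1.13% of alveolar fibroblasts, both receptors in 11.4 ± 1.16% and Pdgfrb alone in 0.177%. Adventitial fibroblasts were the most mixed class, with both receptors in 30.6 ± 2.69%, Pdgfra alone in 55.2 ± 2.90% and Pdgfrb alone in 4.99 ± 1.01%. Pericytes held Pdgfrb alone in 97.8 ± 2.29% of cells and both in 1.27%, which is below the share of neutrophils and B cells with a Pdgfra UMI. Smooth muscle held Pdgfrb alone in 51.9 ± 8.83% and neither receptor in 43.5 ± 9.61%.

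In peribronchial fibroblasts, the main Pdgfc class, 66 ± 2.11% of thinned cells had neither receptor and 25.2 ± 2.75% had Pdgfrb alone. The latter share was 26.3, 25.2 and 29.3% in the p16-DTR-labelled libraries and 24.8, 20.8 and 24.9% in the controls, which did not overlap. This did not hold at other depths, with means of 14 against 16% at 3000 UMIs and 44.0 against 44.0% unthinned, both overlapping. At 5000 UMIs the exact two-sided permutation test gave p = 0.1, the smallest that 3 against 3 libraries allow, and an adjusted p of 0.67. The share with neither receptor also did not overlap at 5000 UMIs, at 64.6, 64.1 and 65.2% against 65.7, 70.0 and 66.3%. Its p and adjusted p were the same, and it overlapped at the other depths. No share of cells with 1, both or neither receptor passed the adjusted threshold of 0.05 in a mesenchymal class, and none could at that smallest p. Unthinned, 33.1% of alveolar and 80.4% of adventitial fibroblasts had a Pdgfrb UMI, against 11.5% and 35.6% after thinning, so these shares are of cells with a UMI at this depth.

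**Figure D2:**
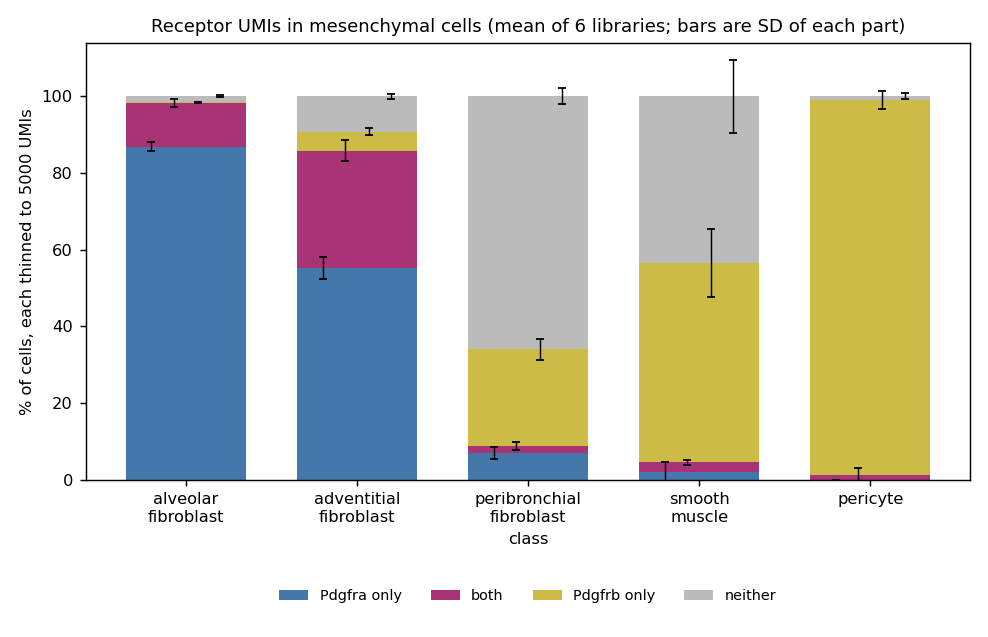
Share of cells (percent, each thinned to 5000 UMIs) with a UMI of Pdgfra alone, Pdgfrb alone, both or neither in 5 mesenchymal classes, as stacked means of 6 libraries with the SD of each part. Alveolar fibroblasts show Pdgfra alone in 86.9%, pericytes Pdgfrb alone in 97.8%, and adventitial fibroblasts both in 30.6%.

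The share of a gene's UMIs that each class supplied also depended on how many cells of it were sorted. Alveolar fibroblasts supplied 90.6 ± 1.39% of Pdgfra UMIs and adventitial fibroblasts 5.94%. Pdgfrb came from pericytes (34.0 ± 9.50%), from alveolar fibroblasts (29.6 ± 5.42%), where the level per cell was low and the cells many, and from adventitial fibroblasts (19.7 ± 4.84%). The gCap class supplied 63.0 ± 6.67% of Pdgfb and 54.6 ± 9.33% of Pdgfd, and aerocytes 19.7 ± 6.60% and 15.1 ± 4.13%. Pdgfc came from peribronchial fibroblasts (37.8 ± 11.3%), adventitial fibroblasts (13.4%) and interstitial macrophages (12.2 ± 10.7%), and unassigned cells held 13.5%. No class held more than 17.8% of Pdgfa UMIs on average: alveolar fibroblasts held 17.8 ± 4.13%, ciliated cells 14.0 ± 2.64%, gCap cells 13.2 ± 3.90%, pericytes 11.7 ± 1.81% and the AT1 class 10.5 ± 4.49%.

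Genes with the most similar pattern were sought among 8942 genes by Pearson's r of log2(CPM + 1) over the means of 17 classes in the control libraries. The classes share libraries, so r is a description. Pdgfra was nearest to Plcxd3 (0.989), 6030408B16Rik (0.988) and Mfap4 (0.987), a microfibril protein of the matrix. Pdgfrb was nearest to Naalad2 (0.965), Tbx5 (0.959), a transcription factor of lung mesenchyme, and C1qtnf1 (0.955). For the ligands the nearest were Nbeal1 (0.919), Dag1 (0.903) and Aktip (0.898) for Pdgfa, Pik3cb (0.861), Ctla2a (0.830) and Wars (0.809) for Pdgfb, Ngb (0.968), Hpse2 (0.961) and Lgr5 (0.957) for Pdgfc, and Plpp1 (0.962), Nsg1 (0.952) and AC130815.2 (0.951) for Pdgfd. Pdgfb had the weakest nearest neighbour of the 6 genes.

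Summed over all retained cells of a library, none of the 6 genes passed the test between groups, and neither did any of the 21414 genes tested (0.0% called at an adjusted p under 0.05, edgeR quasi-likelihood test with Benjamini-Hochberg adjustment). DESeq2 called 11.7% of the same genes and 1 of the 6, Pdgfrb. Pdgfrb stood at 19.7, 20.4 and 18.1 CPM in the p16-DTR-labelled libraries and at 29.6, 26.9 and 26.5 in the controls. The groups did not overlap (19.4 ± 1.19 against 27.7 ± 1.65, n = 3 each), the log2 fold change was -0.46 (SE 0.073), and the adjusted p was 0.137 by edgeR and 3.64e-05 by DESeq2. Pdgfa stood at 25.4, 26.5 and 20.8 against 27.7, 33.5 and 30.7, again without overlap (24.2 ± 3.03 against 30.7 ± 2.88, log2 fold change -0.29, SE 0.11, edgeR adjusted p = 0.195). Of the 7801 genes with at least 20 CPM, 30.4% did not overlap between the groups, against 2 of the 5 PDGF genes at that level, which leaves out Pdgfc.

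The other 4 genes overlapped between the groups. Pdgfb stood at 62.0, 80.0 and 87.8 against 47.0, 78.0 and 56.8 (log2 fold change 0.39, SE 0.21, edgeR adjusted p = 0.294), and Pdgfra at 430.4, 370.4 and 331 against 559, 389 and 384 (-0.19, SE 0.18, edgeR adjusted p = 0.546). Pdgfc stood at 2.43, 3.06 and 2.74 against 4.74, 2.76 and 3.21, and Pdgfd at 164, 169 and 156 against 161, 213 and 169, with edgeR adjusted p of 0.377 and 0.582.

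In such sums, fewer cells of a type and less RNA per cell cannot be told apart. The 5 mesenchymal classes made up 27.97, 23.28 and 19.26% of retained cells in the p16-DTR-labelled libraries and 41.32, 26.58 and 28.52% in the controls. Within the mesenchyme, alveolar fibroblasts were 82.6 ± 0.97% against 80.0 ± 0.55% without overlap (exact permutation p = 0.1, adjusted p = 0.45), and pericytes 2.26 ± 0.45% against 3.45 ± 1.42%. When the share of each class was held at its mean over the libraries, Pdgfrb stood at 22.81, 24.49 and 23.74 against 23.62, 23.02 and 23.37 CPM, and Pdgfa at 27.07, 30.07 and 25.43 against 28.89, 27.21 and 26.69. Both then overlapped, with ratios of the group means of 1.01 and 0.997. The edgeR log2 fold changes of these values, after TMM scaling, were 0.049 and 0.024. Pdgfra held this way was 435.25, 418.19 and 431.83 against 395.64, 412.50 and 384.86, higher without overlap (ratio of means 1.08, edgeR log2 fold change after TMM scaling 0.14), where the sums as measured had the opposite sign. Pdgfd was 166.67, 158.77 and 154.34 against 187.56, 194.06 and 168.61, lower without overlap. Pdgfra and Pdgfd are 2 of the 5 PDGF genes at 20 CPM or more, and 31.4% of the 7804 genes at that level did not overlap with class shares held fixed.

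**Figure D3:**
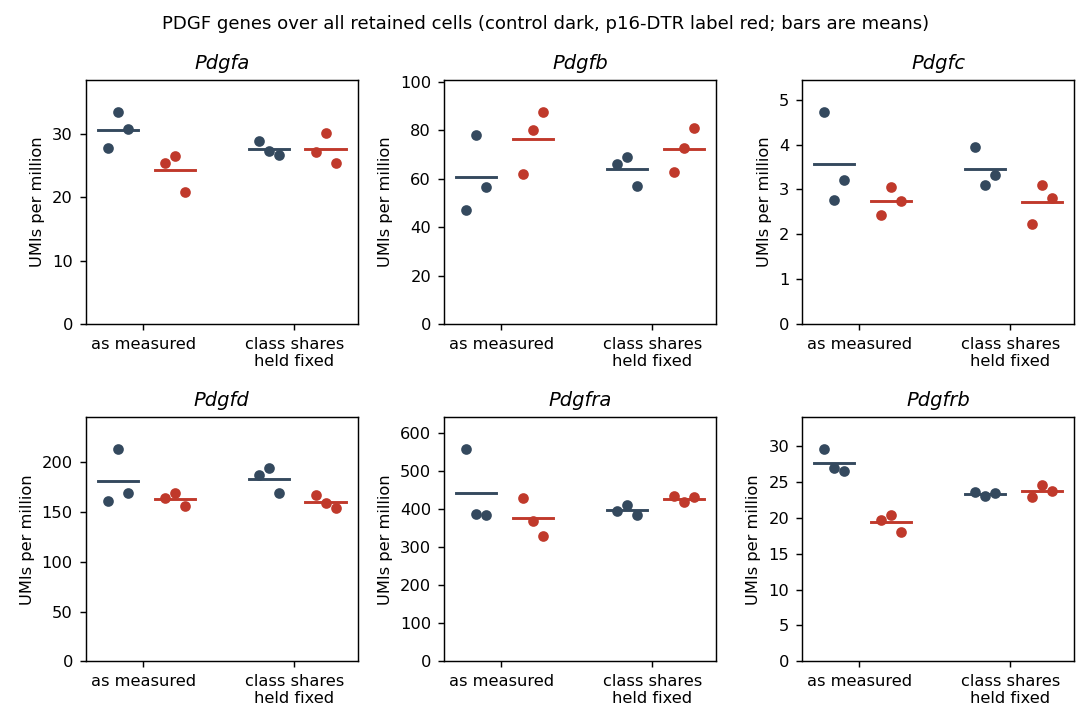
CPM of each PDGF gene summed over all retained cells of a library (points, 1 per library, with bars at the mean of 3), as measured and with class shares held fixed, control dark and p16-DTR label red. Pdgfrb as measured is 18.1 to 20.4 against 26.5 to 29.6, and with fixed shares the groups overlap.

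Within classes, the 6 genes were tested in the 17 classes with at least 50 cells in every library. Of 102 pairs of gene and class, 65 passed the filter on low counts, and in 31 the gene had a mean of at least 20 CPM and is called expressed. None of the 65 pairs had an adjusted p under 0.05 by edgeR, against 0.777% of all genes tested in these classes, and the smallest was 0.0553. At an unadjusted p under 0.05 there were 9 of 65 (13.8%), against 14.0% of all genes, and DESeq2 called 4 (6.15%), against 2.63%. Of the 31 expressed pairs, 4 did not overlap between the groups (12.9%), against 21.7% of all genes expressed at this level. Their log2 fold changes ran from -0.62 to 0.85 with a median SE of 0.14, and 14 of 31 lay within 0.1 of 0.

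Among the expressed pairs Pdgfd had lower values in the p16-DTR-labelled libraries in 6 of 7 classes, and 5 of its 12 tested pairs had an unadjusted p under 0.05, none below the adjusted threshold. Such an unadjusted p was found for 14.0% of all genes and for 13.8% of all PDGF pairs, and Pdgfd was picked from the 6 genes after seeing this. In adventitial fibroblasts Pdgfd stood at 199.9, 209 and 184 CPM in the p16-DTR-labelled libraries and at 277, 268 and 267 in the controls. The groups were far apart relative to their spread (198 ± 12.7 against 271 ± 5.63), with a log2 fold change of -0.45 (SE 0.065) and an edgeR adjusted p of 0.0782, in a class where 0.0% of 13751 genes were called. DESeq2, which called 1.61% of them, gave an adjusted p of 1.82e-05, edgeR without the low-count filter 0.0146, and edgeR with adjustment over all classes at once 0.045. Leaving out each library in turn gave edgeR adjusted p of 0.109 to 0.295. Of all adventitial fibroblast genes at 20 CPM or more, 21.3% did not overlap between the groups. After thinning, 43.4 ± 2.64% against 55.7 ± 4.47% of adventitial fibroblasts had a Pdgfd UMI (unthinned 74.4% against 79.6%). These shares rest on the same UMIs as the levels. Of 102 thinned shares tested over genes and classes, 14 did not overlap, and the smallest adjusted p by exact permutation was 0.729. In the same sums, mesenchymal markers that belong to other classes stood at 8025 to 8172 against 6550 to 6955 CPM without overlap, and their part in the result was not tested.

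In alveolar fibroblasts Pdgfd stood at 30.7, 35.6 and 30.0 against 45.1, 34.1 and 49.8 CPM, a log2 fold change of -0.40 (SE 0.13, edgeR adjusted p = 0.126, DESeq2 0.0463), in a class where edgeR called 1.58% of genes and DESeq2 8.54%. Control replicate 2 was the low one among controls. With each of the 6 libraries left out in turn, the edgeR adjusted p ran from 0.0428 to 0.333. The low end came without that replicate, whose removal widens the difference by construction. Pdgfd was uneven within this class. Among the clusters described at the end, it was highest in a cluster led by Dcn, a gate marker of adventitial fibroblasts. In peribronchial fibroblasts Pdgfd stood at 66.9, 33.4 and 36.5 against 80.7, 87.6 and 55.5 (-0.62, SE 0.24, edgeR adjusted p = 0.194). Replicate 1 of the p16-DTR-labelled libraries lay within the control range. With each of the 6 libraries left out in turn, the edgeR adjusted p ran from 0.0205 to 0.426. Here too the low end came without the replicate whose removal widens the difference by construction.

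Pdgfd in endothelium did not pass the test either. Aerocytes held 734, 586 and 616 against 755, 742 and 769 CPM, lower without overlap (-0.19, SE 0.077, edgeR adjusted p = 0.249), and 0.0454 without the low-count filter. Of all aerocyte genes at 20 CPM or more, 23.9% did not overlap. Venous endothelium held 235, 204 and 163 against 279.9, 321 and 208 (-0.40, SE 0.17, edgeR adjusted p = 0.25), which overlapped. In gCap endothelium, which supplies most Pdgfd, the values were 484, 453 and 460.0 against 539, 562 and 439 (-0.095, SE 0.092, edgeR adjusted p = 0.562). Lymphatic endothelium was the exception in sign, with 295, 219 and 192 against 217, 195 and 232 (0.12, SE 0.14, edgeR adjusted p = 0.763).

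Pdgfc in peribronchial fibroblasts had the smallest adjusted p of the 65 pairs. It stood at 89.8, 84.9 and 111 CPM in the p16-DTR-labelled libraries and at 172, 131 and 131 in the controls, so all 3 of the former lay below all 3 of the latter. Of all genes at 20 CPM or more in this class, 27.4% did not overlap between the groups. The Pdgfc means were 95.2 ± 13.9 and 145 ± 23.6, the log2 fold change was -0.58 (SE 0.14), and the edgeR adjusted p was 0.0553. It was 0.0316 by DESeq2, 0.0472 with library size in place of TMM scaling, 0.000412 without the low-count filter and 0.0347 with the replicate number as a block, and 0.0746 to 0.193 with each library left out in turn. With adjustment over all classes at once the edgeR adjusted p was 0.106, and the pair was not called with clusters or with doublets kept. After thinning, 31.4 ± 2.02% against 44.4 ± 5.45% of these cells had a Pdgfc UMI (unthinned 56.8% against 72.0%). These shares too rest on the same UMIs as the levels, and the smallest adjusted p of the 102 thinned shares was 0.729 by exact permutation. In the same sums, immune lineage markers stood at 29.7 to 88.1 against 14.0 to 17.4 CPM and the dissociation stress genes at 16590 to 17314 against 17622 to 21492, both without overlap. The part of these markers in the result was not tested, and 268 genes (2.43%) were called in this class by edgeR and 3.38% by DESeq2.

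**Figure D4:**
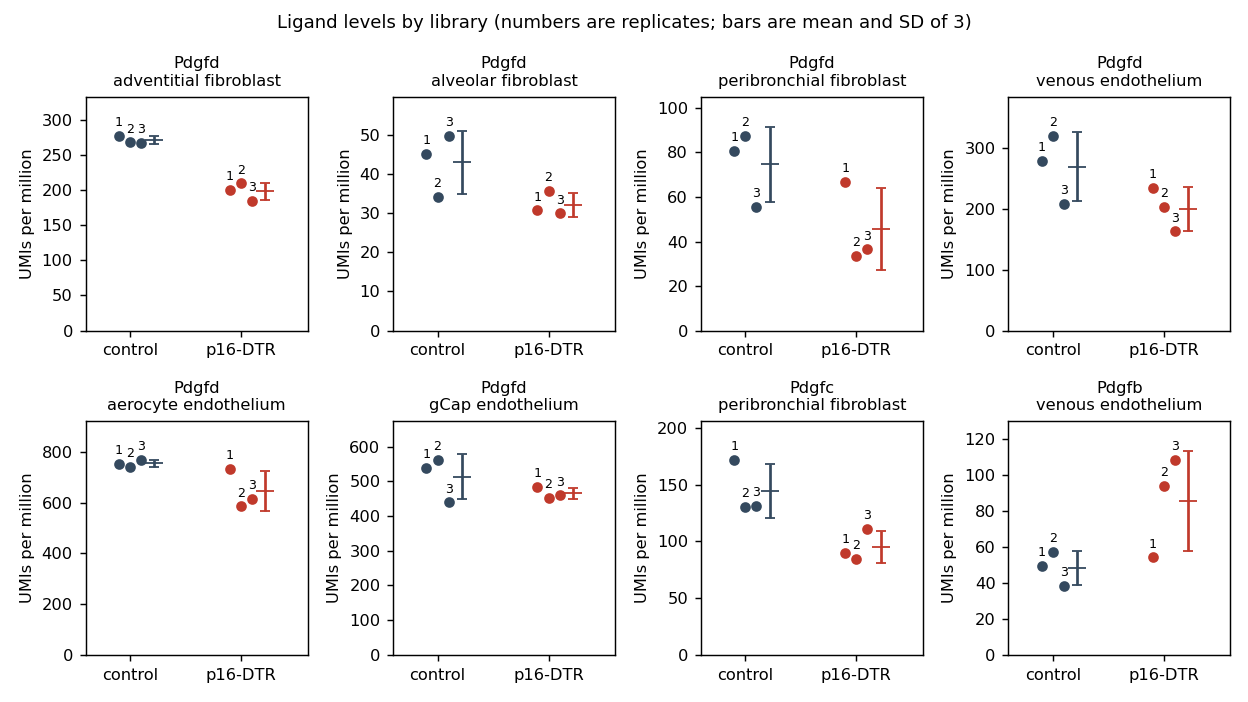
CPM of PDGF ligands in single classes, 1 point per library with its replicate number, and the mean and SD of 3 for control and for the p16-DTR label. Pdgfd in adventitial fibroblasts is 184 to 209 against 267 to 277 and Pdgfc in peribronchial fibroblasts is 84.9 to 111 against 131 to 172, whereas Pdgfb in venous endothelium overlaps.

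Pdgfb had higher values in the p16-DTR-labelled libraries in 6 of its 7 expressed classes. The furthest apart was venous endothelium, with 54.3, 94.2 and 109 CPM against 49.6, 57.3 and 38.5. Replicate 1 of the p16-DTR-labelled libraries lay within the control range. The log2 fold change was 0.85 (SE 0.24, edgeR adjusted p = 0.0908). With each of the 6 libraries left out in turn, the edgeR adjusted p ran from 0.0208 to 0.261. The low end came without that replicate 1, whose removal widens the difference by construction. DESeq2 gave 0.00352, edgeR without the low-count filter 0.00199, and edgeR on cells grouped by cluster 0.0463. Adjustment over all classes at once gave 0.166 by edgeR. The stress genes stood at 5384 to 7485 against 8731 to 10544 CPM in the same cells without overlap, their part in the result was not tested, and 477 genes (3.87%) were called in the class by edgeR and 5.33% by DESeq2. In gCap endothelium Pdgfb stood at 202, 235 and 280.3 against 226, 226 and 177 (0.24, SE 0.14, edgeR adjusted p = 0.324), and in aerocytes the log2 fold change was 0.065 (SE 0.057).

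Pdgfa was expressed in 9 tested classes, with higher values in 6 and lower values in 3. In the AT1 class, 571, 774 and 513 against 824, 809 and 757 CPM gave -0.32 (SE 0.17, edgeR adjusted p = 0.712), with replicate 2 of the p16-DTR-labelled libraries inside the control range. With each library left out in turn, that log2 fold change ran from -0.52 to -0.21. In lymphatic endothelium, 88.1, 81.8 and 56.6 against 60.9, 61.3 and 53.6 gave 0.35 (SE 0.16, edgeR adjusted p = 0.368). Pericytes, with 556, 628 and 488 against 579, 503 and 494, gave 0.084 (SE 0.12, edgeR adjusted p = 0.869).

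Neither receptor passed the test in the cells that carry it. Pdgfra in alveolar fibroblasts was 1515 ± 30.7 in the p16-DTR-labelled libraries and 1385 ± 57.9 in the controls, higher without overlap, with a log2 fold change of 0.15 (SE 0.076, edgeR adjusted p = 0.275). Of all alveolar fibroblast genes at 20 CPM or more, 29.7% did not overlap. In adventitial fibroblasts Pdgfra stood at 543, 472 and 508 against 526, 532 and 534 (-0.060, SE 0.072, edgeR adjusted p = 0.774). Pdgfrb in pericytes was 1326, 1259 and 1275 against 1308, 1413 and 1289.7, a log2 fold change of -0.058 (SE 0.087, edgeR adjusted p = 0.881). Its log2 fold change was 0.10 (SE 0.079) in adventitial fibroblasts, 0.18 (SE 0.12) in alveolar fibroblasts and 0.0044 (SE 0.13) in peribronchial fibroblasts, with edgeR adjusted p of 0.638 and 0.41 for the first 2.

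**Figure D5:**
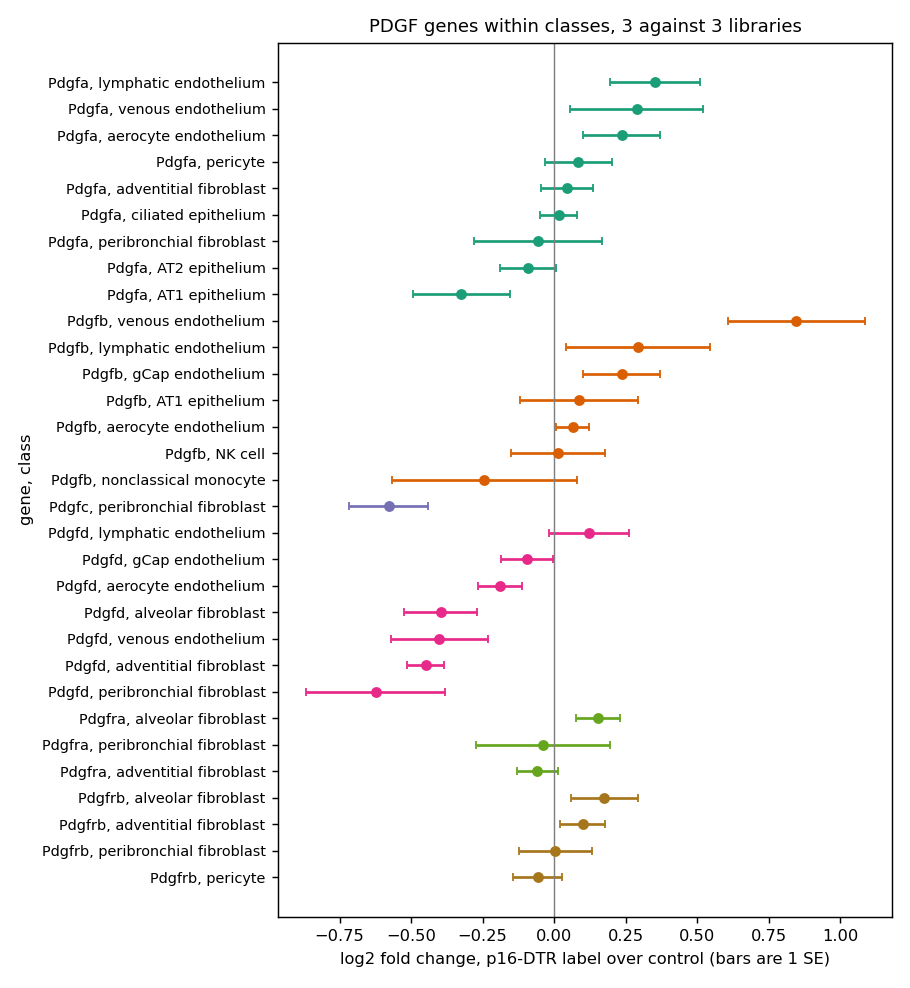
Log2 fold change (horizontal axis, bars of 1 SE) of the p16-DTR label over control for the 31 expressed pairs of PDGF gene and class, from edgeR on sums of 3 against 3 libraries. Values run from -0.62 to 0.85, with Pdgfd mostly left of 0 and Pdgfb mostly right of it, and no pair passes the adjusted threshold.

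Genes that activate, relay or answer PDGF signals were counted in the same fits, from a list of 37 genes. In the 17 classes 17 of 542 tests passed (3.14%, against 0.777% of all genes), 6 of them with higher values under the p16-DTR label (background 0.33%) and 11 with lower values (0.447%). None passed over all cells, where edgeR called no gene. The classes with a call had 0.707% (NK cells), 1.24% (aerocytes), 1.58% (alveolar fibroblasts), 0.0654% (ciliated cells), 1.78% (gCap), 0.28% (lymphatic), 2.43% (peribronchial fibroblasts) and 3.87% (venous) of all genes called. Apart from the fibroblasts, these classes had mean Pdgfra of 3.25 to 5.17 CPM and mean Pdgfrb of 0.239 to 0.891. Neutrophils, taken to lack the receptors, had 4.85 and 0.942. Most calls were thus in classes with hardly any receptor UMIs, and a link of any call to PDGF signals was not tested. The list's median log2 fold change ran from -0.074 to 0.13 over the classes, against -0.0097 to 0.015 for all genes. Of these 17 calls, only 2 held in all 6 fits that leave out 1 library. The first was Plat in aerocytes, which encodes tissue plasminogen activator, the protease that activates PDGF-C: it rose from 9.84 ± 0.737 to 22.5 ± 1.78 CPM (log2 fold change 1.23, SE 0.11, edgeR adjusted p = 0.00164, at most 0.0158 with 1 library left out). The mean of Plat over all 6 libraries lay below the 20 CPM taken as expressed, and aerocytes held 1 Pdgfc UMI in all. The second was Egr1 in venous endothelium, an early response gene, which fell from 1644 ± 360.4 to 726 ± 122 (-1.15, SE 0.17, edgeR adjusted p = 0.0104, at most 0.0332). Egr1 is also on the stress list, and it was lower in gCap (-1.33, 0.0401) and lymphatic endothelium (-0.81, 0.0168), the second numbers being edgeR adjusted p. Those 2 calls were lost in 4 and 3 of the 6 fits that leave out 1 library, with an adjusted p of up to 0.12 without replicate 3 of the p16-DTR-labelled libraries and up to 0.107 without control replicate 1.

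The other calls among growth factor response genes were mostly lower. Cxcl1, a neutrophil attractant, fell in alveolar fibroblasts from 64.9 ± 31.5 to 15.5 ± 1.11 CPM (-2.05, SE 0.31, edgeR adjusted p = 0.0383) and in peribronchial fibroblasts from 71.5 ± 15.1 to 30.3 ± 6.72 (-1.23, SE 0.19, edgeR adjusted p = 0.0134). The first was lost in 5 of the 6 fits, up to 0.142 without replicate 3 of the p16-DTR-labelled libraries, and the second without control replicate 1 (0.0526) and without control replicate 2 (0.053). Odc1, the first enzyme of polyamine synthesis, fell in aerocytes (-0.52), gCap (-0.40) and venous endothelium (-0.79), with edgeR adjusted p of 0.0173, 0.0332 and 0.0453. Ccnd1, a cyclin of early cell cycle entry, rose in aerocytes from 292 ± 10.5 to 393 ± 43.7 (0.47, edgeR adjusted p = 0.0198). Fos, which is on the stress list too, rose in NK cells (0.43, edgeR adjusted p = 0.0458). The 3 Odc1 calls were lost in 3, 4 and 3 of the 6 fits, reaching 0.0622 in aerocytes without control replicate 3 and up to 0.103 and 0.133 without replicate 3 of the p16-DTR-labelled libraries in the others. Ccnd1 was lost in 4 fits, up to 0.0724 without that same library, and Fos in all 6, up to 0.206 without control replicate 3.

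Among the relay and feedback genes, Socs3, an inhibitor of cytokine signalling, fell in NK cells (-0.96, edgeR adjusted p = 0.0219) and ciliated cells (-0.95, 0.0489). Plcg1, a phospholipase that binds activated PDGF receptors, rose in NK cells from 2.60 ± 0.574 to 12.2 ± 4.05 CPM (2.30, SE 0.40, edgeR adjusted p = 0.0285) and in venous endothelium (0.36, 0.0382). Both NK cell means of Plcg1 lay below the 20 CPM taken as expressed. Control replicate 2 had only 75 NK cells, and DESeq2 gave no adjusted p for Plcg1 in that class. Stat3 fell in lymphatic endothelium (-0.50, 0.0494), and Sparc, a matrix protein that binds PDGF, rose in alveolar fibroblasts from 1019 ± 59.5 to 1389 ± 128 (0.47, edgeR adjusted p = 0.0496). Each of these 6 calls was lost in 4 to 6 of the 6 fits, where the highest adjusted p of a call was 0.137 to 0.222. The highest came without control replicate 1 for Socs3 in ciliated cells, Stat3 and Sparc, without control replicate 3 for both NK cell calls and without replicate 3 of the p16-DTR-labelled libraries for Plcg1 in venous endothelium. With clusters in place of the gate, Socs3 in ciliated cells (edgeR adjusted p = 0.148) and Sparc (0.0505) were lost, and 15 of the 17 pathway calls were kept. The stress genes themselves passed in 9 of 166 tests (5.42%, against 0.777% of all genes), 2 higher and 7 lower, and their sum was 3849 to 4840 against 5215 to 7513 CPM in gCap and 8564 to 9155 against 10937 to 12652 in lymphatic endothelium, both without overlap. Their part in the calls of Egr1 and Fos was not tested.

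Relatives of the PDGF genes, the VEGF ligands and the related receptor kinases, passed in 5 of 141 tests (3.55%, against 0.777% of all genes) from a list of 12 genes, 2 higher (background 0.33%) and 3 lower (0.447%). Vegfa, the main vascular growth factor, fell in NK cells from 175 ± 23.1 to 80.5 ± 15.6 CPM (-1.14, SE 0.14, edgeR adjusted p = 0.00345) and rose in venous endothelium from 124 ± 9.28 to 193 ± 12.8 (0.66, SE 0.084, edgeR adjusted p = 0.00759), and both held in all 6 fits without a library. In venous endothelium Kdr, the main VEGF receptor, fell from 369.7 ± 22 to 280 ± 15 (-0.38, edgeR adjusted p = 0.0321) and Vegfd fell too (-0.72, 0.0411), and these were lost in 6 and 5 of the fits, up to adjusted p of 0.109 and 0.133 without replicate 3 of the p16-DTR-labelled libraries. In pericytes, the main Pdgfrb class, Flt1, a VEGF receptor best known from endothelium, rose from 72.0 ± 10.6 to 175 ± 40.3 (1.29, SE 0.17, edgeR adjusted p = 0.0192, in a class with 0.101% of genes called), and the call was lost without control replicate 1 (0.129), 2 (0.101) or 3 (0.122). With clusters in place of the gate the log2 fold change of Flt1 was smaller, 0.85 (edgeR adjusted p = 0.0403). Endothelial markers in the pericyte class stood at 34.2 to 95.1 against 52.4 to 109 CPM and overlapped, and immune markers at 54.7 to 90.2 against 11.7 to 33.4 without overlap, whose part in the result was not tested.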

How the data were processed

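The authors deposited 1 matrix of raw UMI counts per library, made with Cell Ranger 8.0.1 per the file headers and on mm10 per the submitters' processing notes. The 6 genes and the gene lists were chosen with earlier results of these data known, so no count over them is independent evidence. Groups come from the sample titles, and each library is 1 mouse.

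Cells with at least 300 genes, 500 UMIs and at most 15% mitochondrial UMIs were kept (91156), and 5574 predicted doublets, 5.21 to 6.75% per library, were removed. Each cell was scored for 158 markers of 29 classes and assigned at a score of at least 0.3, a lead of at least 0.1 and 3 detected markers. Leiden clusters (71) gave the same class for 97.6% of assigned cells in named clusters. For arterial endothelium this share was 78.7%, or 33.5% of all its cells. Of its cells 34.5% lay within 0.05 of a cut of the gate, so its levels are less certain. Counts were summed per library and class, and edgeR 4.0.16 (R 4.3.3, TMM, filterByExpr, quasi-likelihood test, group alone) was fitted across all genes of each class with at least 50 cells in every library, with Benjamini-Hochberg adjustment at 0.05 within the class. The fit was tested on simulated data. DESeq2 1.42.0 was an alternative, as were other scaling, no low-count filter, stricter cells, doublets kept, clusters in place of the gate, adjustment over all classes and each library left out. Doublets, clusters and thinning used scikit-learn 1.9.0, leidenalg 0.10.2 and numpy 2.4.6. Shares were compared by exact two-sided permutation tests, adjusted over their family. Since no PDGF gene passed in a class, no test of a difference between classes was made.

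Named genes are the 6 PDGF genes, pathway and superfamily genes with an adjusted p under 0.05 (at most 3 per class and list), and the 3 genes most like each PDGF gene. Positions come from GENCODE M21.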

Additional observations from a re-analysis of the deposited data

Results flagged for a closer look

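tdTomato, a reporter feature in the count matrices that no comparison above uses, had 229 UMIs over all retained cells of the p16-DTR-labelled libraries, at 0.251 to 0.318 CPM in each, and 0 in the controls. A count of 0 allows up to 3 UMIs over the control group, 0.00368 CPM, and the lower exact Poisson 95% limit of the 229 UMIs lies 69.4-fold above that. That limit covers counting error only, and the lowest of the 3 libraries, at its measured level, lies 68.1-fold above the control limit. Neither genotype as given in the labels names a tdTomato allele.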

How the results depend on the processing

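The libraries number 3 a group, so no share or level could reach p under 0.1 by permutation, and AT1 cells are shallow. Over all cells the count of called PDGF genes was 0 under every edgeR setting run, each library left out included, and 1 (Pdgfrb) by DESeq2. Within classes the count of called pairs, 0 as reported, was 1 with library size scaling (Pdgfc in peribronchial fibroblasts), 5 (3 genes) without the low-count filter, 1 with the replicate number as a block (the same pair, adjusted p = 0.0347 by edgeR), 4 (3 genes) by DESeq2, 1 with doublets kept, 1 with clusters (Pdgfb in venous endothelium), 1 with adjustment over all classes together and 0 to 2 with a library left out. Of all genes, 0.845% were called with library size scaling (PDGF pairs 1.54%), 2.04% without the filter (5.0%), 0.81% with the block (1.54%), 2.63% by DESeq2 (6.15%) and 0.465% with doublets kept (1.25%), against 0.777% as reported. No share of all genes is given with clusters, adjustment over all classes or a library left out. Counts under those settings, for PDGF pairs and for the lists, therefore stand without a background and are not read as a result. The pathway list had 70 calls (11.3%) without the low-count filter, 47 (8.67%) by DESeq2, 11 (1.96%) with doublets kept and 3 to 14 with a library left out. The superfamily list had 12 (5.88%), 9 (6.38%), 3 (1.88%) and 2 to 4, with 3 under the block and 3 with adjustment over all classes, and the stress list 45 (26.5%), 31 (18.7%), 4 (2.4%) and 2 to 10, with 5 in the latter. The cause was not tested. Same-numbered libraries correlated at 0.136, 0.003 and 0.104 in their deviations from the group means, and differently numbered ones at -0.158 to 0.066. Deviations from a mean of 3 are tied to each other, so these values cannot decide whether the numbers pair the libraries. The main fits did not pair them. With class shares held fixed, the edgeR log2 fold change over all cells, after TMM scaling, turned to 0.024 for Pdgfa, 0.14 for Pdgfra and 0.049 for Pdgfrb, where the plain ratios of means were 0.997, 1.08 and 1.01. Signs also turned near 0 for Pdgfa in pericytes (-0.042 with clusters), Pdgfb in NK cells (-0.0092 under the block, -0.013 with clusters), and Pdgfrb in peribronchial fibroblasts (-0.027 with library size) and pericytes (0.040 with doublets kept). With a library left out they spanned 0 for Pdgfa in adventitial fibroblasts (-0.027 to 0.10), ciliated cells (-0.019 to 0.050), peribronchial fibroblasts (-0.21 to 0.13) and pericytes (-0.032 to 0.18). They also did for Pdgfb in the AT1 class (-0.12 to 0.28), NK cells (-0.15 to 0.16) and nonclassical monocytes (-0.48 to 0.23), for Pdgfd in lymphatic endothelium (-0.074 to 0.26) and all cells (-0.17 to 0.026), for Pdgfra in peribronchial fibroblasts (-0.26 to 0.11) and all cells (-0.30 to 0.024), and for Pdgfrb in peribronchial fibroblasts (-0.069 to 0.077). With doublets kept, alveolar fibroblasts held 87.7% of Pdgfra UMIs and pericytes 1248 Pdgfrb CPM, or 1105 with clusters, and Pdgfra in aerocytes passed at -1.67 (edgeR adjusted p = 0.0319). Cells with both receptors were 17.6% of adventitial and 6.50% of alveolar fibroblasts at 3000 UMIs, and 79.8% and 33.0% unthinned. With classes of at least 20 cells no pair passed. The cells of at least 5000 UMIs and the list settings were chosen after seeing the data.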

Other observations

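Clusters within the classes differed in their PDGF genes. These values are means over the 6 libraries, given as a description of clusters formed from 2000 variable genes. The 6 PDGF genes were kept out of those. Among alveolar fibroblasts, a cluster of 2864 cells led by Dcn and Sema3d held Pdgfd at 198 CPM and Pdgfra at 899, whereas the clusters of 6764 and 4533 cells held Pdgfd at 5.46 and 1.51 and Pdgfra at 1537 and 1655. A cluster of 3824 cells led by Tnc and Cemip stood between them, with Pdgfd at 45.9 and Pdgfra at 1396. Dcn, which led the first cluster, is also a gate marker of adventitial fibroblasts. By the gate, adventitial fibroblasts held Pdgfd at 234 and Pdgfra at 519. In the Dcn and Sema3d cluster Pdgfd was 171, 165 and 192 in the p16-DTR-labelled libraries and 222, 195 and 244 in the controls, so the groups did not overlap. Pdgfrb did not overlap there either, with 50.5, 59.9 and 65.7 against 47.5, 44.7 and 43.9. These are 2 of the 4 PDGF genes at 20 CPM or more in the cluster, and 28.4% of all its genes at that level did not overlap. The cluster was picked as the large alveolar fibroblast cluster with the highest Pdgfd, and group values of the others are not given.

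Adventitial fibroblasts fell mainly into a cluster of 2026 cells with Pdgfd at 251 and Pdgfra at 482 and a cluster of 894 cells with Pdgfd at 122 and Pdgfra at 755. Pdgfd was lower without overlap in the p16-DTR-labelled libraries in both, with 221, 234 and 187 against 294, 286 and 286 in the first and 84.3, 86.7 and 96.2 against 183, 116 and 168 in the second. It was the 1 PDGF gene without overlap of 3 at 20 CPM or more in the first cluster and of 4 in the second, where 18.7% and 21.1% of all genes at that level did not overlap. Of the gated adventitial fibroblasts, 93.2% lay in clusters of that name. These values therefore rest largely on the same cells as the class result above and are no second result. Among gCap endothelium, a cluster of 3325 cells stood at 337 for Pdgfb and 655 for Pdgfd, and a cluster of 135 cells at 488 and 1075, the former resting in part on 919.7 in replicate 1 of the p16-DTR-labelled libraries. T cell clusters ranged from 0.918 to 27.6 for Pdgfb, the highest in a cluster with Gzmk and Eomes among its leading genes.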
